A study of Mus musculus with 5480 samples.

Results

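Pericytes and vascular smooth muscle cells of the newborn lung were compared at postnatal day 7 (P7) in mice that breathed normal air. The cells were those that the authors' subtype label names "Pericyte" or "Vascular smooth muscle" in the 2 mice of that group, 1 female and 1 male. They numbered 115, of 1176 cells of these 2 mice and of 5480 cells in all. The female gave 26 pericytes and 27 muscle cells, and the male gave 31 and 31. The series holds mesenchymal cells of distal lung, sorted by flow cytometry and sequenced one by one in plates, from 10 mice in 5 groups: embryonic day 18.5 (E18.5), P1, P7 or P21 with normal air, and P7 with hyperoxia. The labels give no strain, genotype or transgene. Both subtypes of a mouse came from the same sequencing run and the same 2 plates, except 3 muscle cells of the male that the labels put in another run, from a CD31 sort. Another 10 cells at P7 were labelled proliferating pericytes and were left out. How the subtypes were assigned is not given in the sources used here. The labels carry a 2-dimensional embedding of the cells, so the names may rest on the same reads, and the tests below describe how the named cells differ rather than give independent evidence that the types exist.

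Both are mural cells, the contractile and supporting cells of the vessel wall. Smooth muscle surrounds arteries and veins in layers, contracts through actin and myosin, and makes the elastic fibres of the arterial wall. Pericytes lie singly on capillaries inside the basement membrane that they share with the endothelium. Notch signalling, chiefly through NOTCH3, and PDGF signalling through PDGFRB are known to maintain both. In the first postnatal weeks the lung's capillary bed expands as alveoli form.

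All cells of 1 subtype from 1 mouse were added up into a library, and levels are CPM, counts scaled to a common library size, with the TMM correction for library composition. The summed P7 libraries held 20082959 and 26234403 reads for the pericytes of the female and the male, and 26490271 and 26955961 for the muscle cells. Single cells held 48526 to 3242256 reads. The median pericyte held 552245 reads in the female and 648117 in the male, against 951911 and 824454 for the median muscle cell. In every pair of values below the female comes first. The difference was tested with edgeR's quasi-likelihood test on 12 libraries, both subtypes of 6 mice in normal air at P1, P7 and P21, with the mouse as a block. Positive log2 differences mean higher in pericytes, and a gene is called at a Benjamini-Hochberg adjusted p under 0.05. With 2 mice at P7 the spread comes mostly from the other ages.

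Of 12991 genes tested, 83 were called at P7 (0.639% of those tested). Pericytes were higher for 24 (0.185%) and muscle for 59 (0.454%), and 816 genes were past an unadjusted p of 0.05. The median log2 difference of all genes tested was -0.13. DESeq2 called 1236 genes (486 higher in pericytes and 750 in muscle), a fit with cells thinned to 100000 reads 336 (140 and 196), a fit with no filter on low counts 223, and the 4 P7 libraries alone 45 (5 and 40). Without the female P7 mouse 57 genes were called, among them 42 of the 83, and without the male 51, among them 41 of the 83. Of the 83, 33 were called in both of these fits, among them Car2, Itm2a, Lepr, Pde5a, Kcnj8, Emid1, Eln, Cnn1, Loxl1, Ntf3, Ntrk3 and Mgp. Another 33 were called in neither, among them Slc9a9, Sstr2, Tmem100, Hgf, Cdk18, Tmem200a, Gucy1a1, Fhl1, Col1a1, Id2, Sod3 and Grp, so the call of these rests on both mice. Without the male alone 9 more were lost, among them Acta2, Postn, Gap43, Ednrb, Igfbp7 and Trac, and without the female alone 8, among them Higd1b, Cox4i2, Myocd, Thbs1 and Thbs2.

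Postn, which encodes the matricellular protein periostin, was called higher in pericytes. It stood at 7644 and 9699 CPM in pericytes and 1763 and 1899 in muscle (log2 difference 2.23 ± 0.32 SE, edgeR adjusted p = 0.0067), so it was read in both types. Itm2a, a type II membrane protein, was measured at 8403 and 4408 CPM in pericytes against 72.1 and 85.9 in muscle (6.27 ± 0.87, edgeR adjusted p = 0.0061). Car2, a carbonic anhydrase that interconverts carbon dioxide and bicarbonate, was at 5259 and 3939.6 against 24.9 and 3.81 CPM (8.86 ± 1.00, edgeR adjusted p = 0.0019). As for all 24 genes, both pericyte libraries lay above both muscle libraries, which the choice of called genes favours and which held for 17.2% of all genes tested. In single cells, Itm2a reached 10 CPM in 57 of 57 pericytes and in 11 of 58 muscle cells, and Car2 in 53 and in 4.

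**Figure D1:**
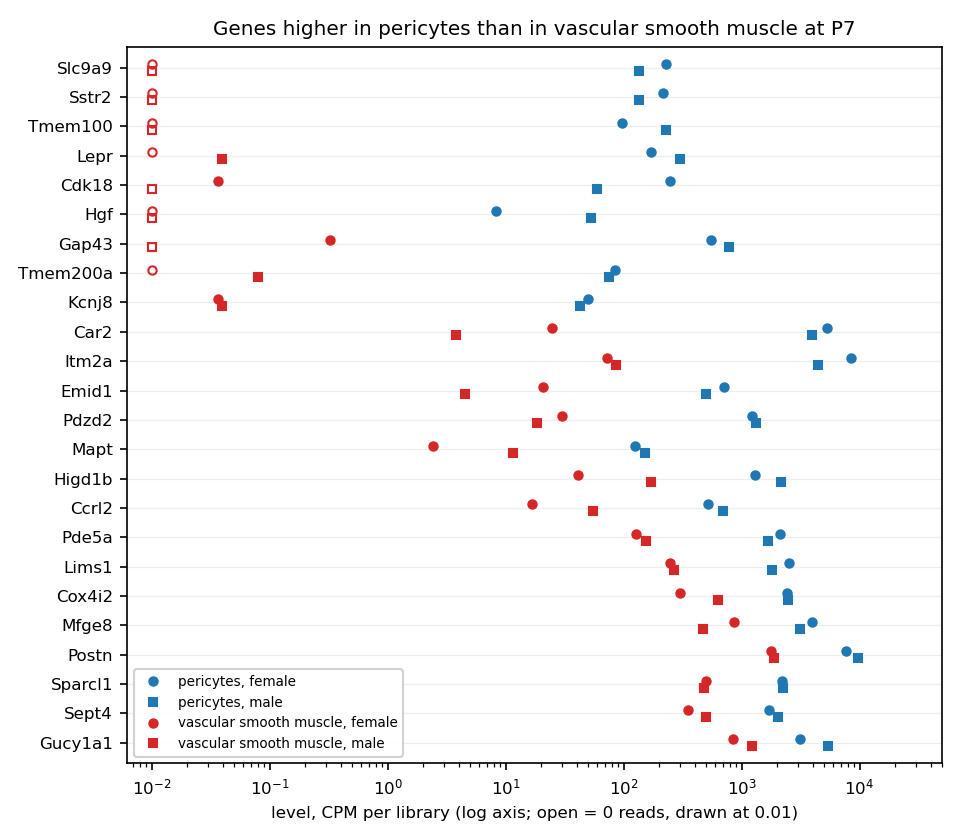
Levels of the 24 genes called higher in pericytes at P7, in CPM on a log axis, for the 4 summed libraries (blue pericytes, red vascular smooth muscle, circles female, squares male). Open symbols mark libraries with 0 reads, drawn at 0.01. Postn and Gucy1a1 were present in both types, while Slc9a9, Sstr2, Tmem100 and Hgf had no read in either muscle library.

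Some pericyte genes were not read at all in muscle. No read of Slc9a9 (a sodium/proton exchanger of endosomes), Sstr2 (a somatostatin receptor), Tmem100 or Hgf (hepatocyte growth factor, the ligand of the MET receptor) was counted in either muscle library. Their pericyte levels were 229.6 and 135 CPM for Slc9a9, 218 and 135 for Sstr2, 96.7 and 229 for Tmem100 and 8.36 and 53.0 for Hgf. Against a floor of 3 reads over both muscle libraries, Slc9a9 was at least 3066-fold higher in pericytes, Sstr2 at least 2978-fold, Tmem100 at least 3064-fold and Hgf at least 607-fold (edgeR adjusted p = 0.019, 0.0093, 0.024 and 0.040). These floors cover counting error only, because reads without molecular identifiers are not independent molecules. Lepr, the leptin receptor, was at 171 and 302 CPM in pericytes with 1 read in muscle, a ratio of 13051 (95% interval 2342 to 515543) by counting (edgeR adjusted p = 0.0012). Cdk18, a cyclin-dependent kinase, was at 248 and 59.8 CPM, also with 1 muscle read, a ratio of 7275 (95% interval 1305 to 287401) (0.021 in the same test). Tmem200a, with 2 muscle reads, had a ratio of 2077 (95% interval 574 to 17154) (edgeR adjusted p = 0.021). Gap43, a protein of growing axons, was at 553 and 785 against 0.326 and 0 CPM (12.35 ± 1.97, edgeR adjusted p = 0.021). None of these 8 genes was in more than 37 of the 57 pericytes at 10 CPM: Hgf was in 15, Slc9a9 in 13, Lepr in 28 and Gap43 in 37, while 0 of 58 muscle cells held any of the 8 at that level. By a limit of 3 counts, 0 of 58 allows a share of cells of up to 5.17%, and the upper end of the 95% Wilson interval is 6.21%. Both treat the cells of 2 mice as independent.

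The cyclic GMP route, through which nitric oxide relaxes vessels, had 2 genes called higher in pericytes. Gucy1a1 encodes the alpha subunit of soluble guanylate cyclase, the nitric oxide receptor, and stood at 3145 and 5415 CPM in pericytes and 849 and 1226 in muscle (2.02 ± 0.37, edgeR adjusted p = 0.037). Pde5a, the phosphodiesterase that breaks cyclic GMP down, was at 2139 and 1691 against 128 and 156 CPM (3.75 ± 0.45, edgeR adjusted p = 0.0026). The partner subunit Gucy1b1 did not pass (log2 difference 2.27, 95% interval 0.99 to 3.55, edgeR adjusted p = 0.16), at 716 and 964 against 97.3 and 306 CPM, and neither did Prkg1, the cyclic GMP-dependent kinase (37.0 and 179.6 against 23.4 and 74.7 CPM, edgeR adjusted p = 1.0). In the list of contraction control genes, 3 of 21 tested members were called: these 2 higher in pericytes, and Myocd higher in muscle. DESeq2 called 6, 4 of them higher in pericytes, and the list's median was -0.45. The list held the symbol Mal, apparently matched through an older gene name, which may not be the gene meant. Its tested number, DESeq2 count and median may include that symbol.

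Mitochondrial and channel genes known as pericyte markers split in different ways. Higd1b, a hypoxia-inducible domain protein of mitochondria, was at 1294 and 2149 against 41.0 and 172 CPM (4.31 ± 0.61, edgeR adjusted p = 0.0067). Cox4i2, an isoform of a cytochrome c oxidase subunit, was at 2449.8 and 2472 against 302 and 635 CPM (2.49 ± 0.43, edgeR adjusted p = 0.024). Higd1b at 10 CPM was held by 54 of 57 pericytes and 5 of 58 muscle cells, and Cox4i2 by 57 and 26. Kcnj8, the pore of an ATP-sensitive potassium channel, was at 49.8 and 42.6 CPM in pericytes with 1 read in each muscle library, a ratio of 1204 (95% interval 333 to 9944) (edgeR adjusted p = 0.0042), but 10 CPM was reached in 8 of 57 pericytes. Its regulatory subunit Abcc9 did not pass, at 21.1 and 126 against 0.870 and 6.56 CPM (log2 difference 4.43, 95% interval 2.29 to 6.57, edgeR adjusted p = 0.097). Kcnj8 was the 1 gene that edgeR called among 22 ion channels tested, while DESeq2 called 9, of which 7 were higher in pericytes.

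The other genes called higher in pericytes were Pdzd2, Emid1, Ccrl2 (an atypical chemoattractant receptor), Mapt (the microtubule protein tau), Lims1 (an adaptor at integrin adhesions), Mfge8 (a secreted glycoprotein), Sparcl1 (a matricellular glycoprotein) and Sept4 (a septin of the cytoskeleton). Emid1 stood at 705 and 504 CPM in pericytes and 20.7 and 4.57 in muscle (5.93 ± 0.75, edgeR adjusted p = 0.0034). Pdzd2 was at 1225 and 1323 against 30.3 and 18.5 CPM (5.75, edgeR adjusted p = 0.0012). The smallest differences were those of Gucy1a1, Sept4 (2.16) and Sparcl1 (2.16).

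Many muscle genes were without reads in pericytes. For 26 of its 59 called genes, neither pericyte library held a read, and for another 12 the pericytes held 1 to 3 reads in all. In the other direction these numbers were 4 and 4 of 24. Pericyte libraries held fewer reads than muscle libraries in both mice, and the part of this in the counts of genes without reads was not tested.

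**Figure D2:**
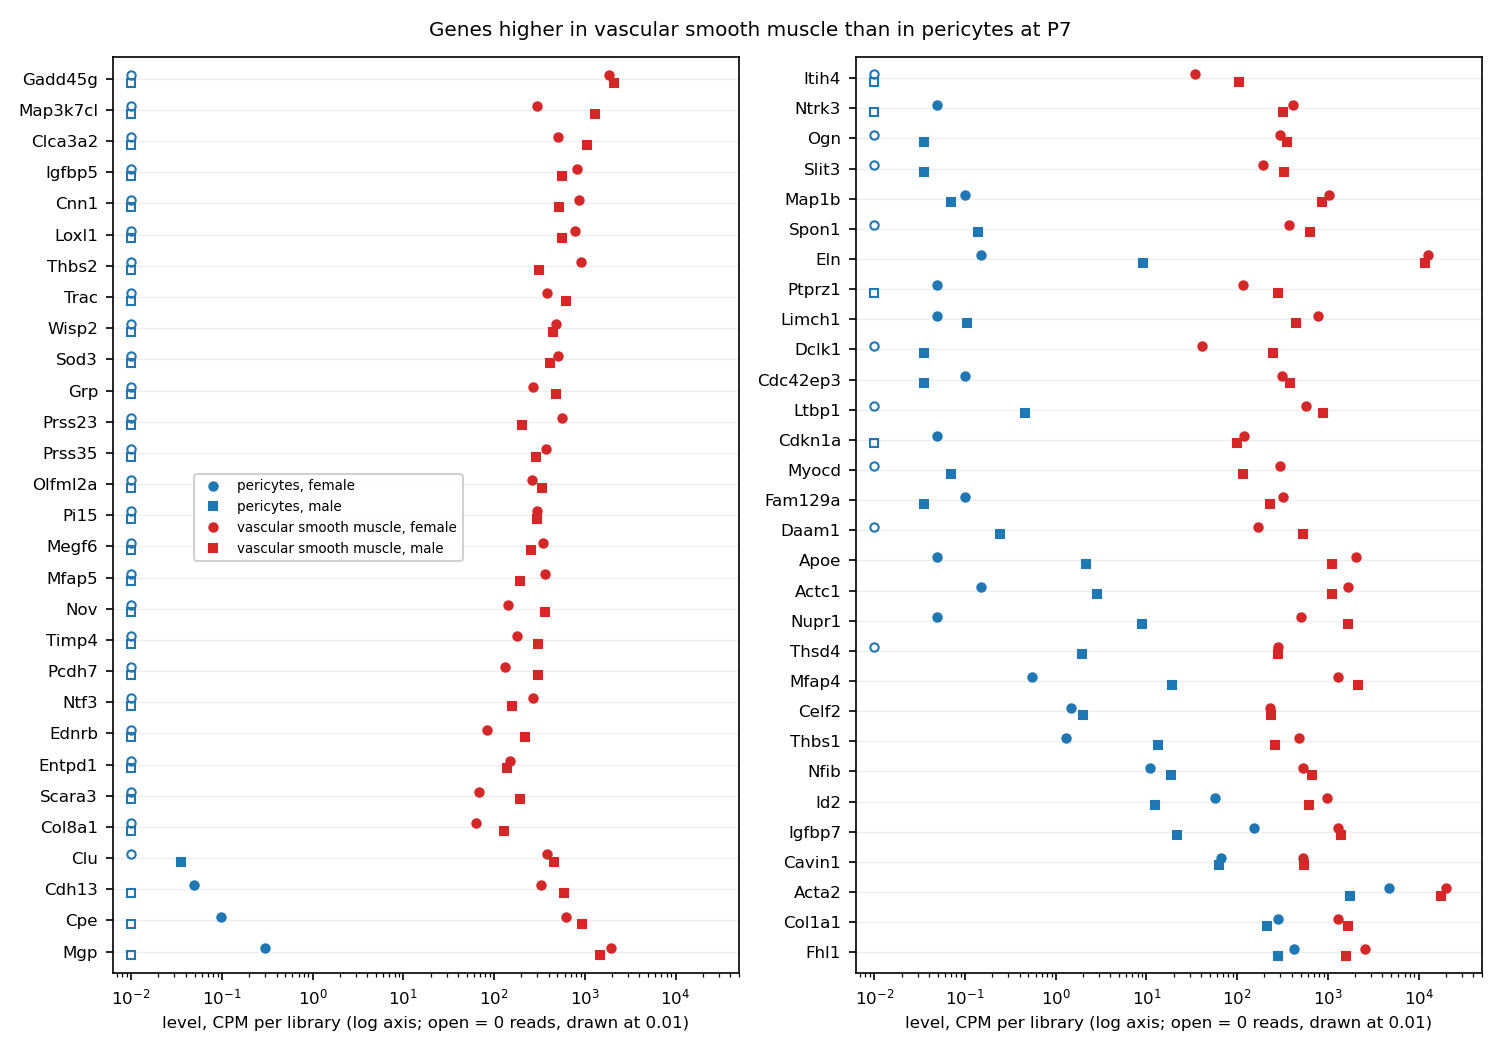
Levels of the 59 genes called higher in vascular smooth muscle at P7, in CPM on a log axis, with symbols as in the plot of pericyte genes, ordered by fitted difference from the top of the left panel to the foot of the right. The 26 genes with open blue symbols only had no read in pericytes of either mouse, while Acta2, Fhl1 and Col1a1 had substantial levels in pericytes.

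Among elastic fibre genes the 2 types hardly overlapped for elastin and for Loxl1, an enzyme of the lysyl oxidase family. Eln encodes elastin, the core of the elastic fibre, and stood at 12782 and 11652 CPM in muscle and 0.148 and 9.19 in pericytes (log2 difference -12.89 ± 1.55, edgeR adjusted p = 0.0026). The fitted difference of Eln ran from -16.27 to -7.94 over the alternatives, with adjusted p up to 0.11. The lowest muscle cell held 1799.7 CPM in the female and 2877 in the male, whereas the highest pericyte held 2.07 and 184, so no cell of one type reached the range of the other. Loxl1, which crosslinks elastin, was at 785 and 555 CPM in muscle with no read in pericytes, at least 10967-fold higher (edgeR adjusted p = 0.00030). Mfap5, a microfibril glycoprotein, was at 367 and 191 CPM with no read in pericytes (at least 4597-fold, edgeR adjusted p = 0.0012), and was held by 11 of 58 muscle cells at 10 CPM. Mfap4 was at 1298 and 2133 against 0.544 and 19.3 CPM (edgeR adjusted p = 0.0061). Fbn1, the fibrillin that forms the microfibril scaffold, did not pass: it was at 827 and 1129.6 CPM in muscle and 676 and 337 in pericytes (log2 difference -1.02, 95% interval -2.19 to 0.15, edgeR adjusted p = 0.87). Of 17 elastic fibre genes tested, 4 were called, each higher in muscle (8 by DESeq2, each higher in muscle), and the list's median was -1.02.

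Of the contractile genes, Acta2 and Cnn1 were called higher in muscle. Acta2, smooth muscle alpha-actin, was at 20245 and 17738 CPM in muscle and 4665 and 1743 in pericytes (-2.73 ± 0.39, edgeR adjusted p = 0.0067). The median muscle cell held 16806 CPM in the female and 19336 in the male, and the median pericyte 2281 and 1612. Acta2 reached 10 CPM in 45 of 57 pericytes, so most pericytes at this age carried the transcript. The highest of them, a female cell (11858 CPM), lay within the range of female muscle cells (7051 to 50172 CPM). In the male, 30 of 31 muscle cells held a read of Acta2, and the lowest held 0 CPM. Cnn1, the actin-binding protein calponin, was at 853 and 525 CPM in muscle with no read in any of 57 pericytes, at least 11309.5-fold higher (edgeR adjusted p = 0.0012), and 33 of 58 muscle cells held it at 10 CPM. Myocd, the coactivator of serum response factor that drives contractile genes, was at 295 and 117 CPM with 2 reads in pericytes, a ratio of 5121 (95% interval 1417 to 42295) (edgeR adjusted p = 0.0069). Actc1, the actin of the heart, was at 1662 and 1118 against 0.148 and 2.84 CPM (-10.67 ± 1.31, edgeR adjusted p = 0.0061, fitted difference -13.33 to -8.55 over the alternatives).

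Other contractile genes were read more in muscle of both mice without passing the test. Myh11, the smooth muscle myosin heavy chain, was at 677 and 1079 CPM in muscle and 243 and 346 in pericytes (log2 difference -1.56, 95% interval -2.64 to -0.48, edgeR adjusted p = 0.35). Tagln, an actin-bundling protein, was at 546 and 606 against 109.9 and 67.9 CPM (log2 difference -2.74, edgeR adjusted p = 0.067), and enteric actin Actg2 at 2463 and 2095 against 449 and 115 (-3.32, edgeR adjusted p = 0.11). Tpm1 and Tpm2, the tropomyosins along the actin filament, had log2 differences of -1.67 and -2.13 (edgeR adjusted p = 0.13 and 0.29). In all, 2 of 24 contractile genes tested were called, both higher in muscle (8 by DESeq2, each higher in muscle), 21 of the 24 had a negative log2 difference, and the median was -1.61 against -0.13 for all genes tested. Actin genes share long stretches of sequence, and how reads matching several genes were counted is not given in the sources used here.

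Among the secreted and signalling genes of muscle, ligand and receptor of 1 pair stood together. Ntf3 encodes neurotrophin 3 and was at 268 and 157 CPM in muscle with no read in pericytes (at least 3492-fold, edgeR adjusted p = 0.0045). Ntrk3 encodes its receptor TRKC and was at 415 and 323 CPM with 1 read in pericytes (ratio 18094 (95% interval 3247 to 714717), edgeR adjusted p = 0.0014). At 10 CPM, Ntf3 was held by 17 and Ntrk3 by 34 of 58 muscle cells. Of the endothelin receptors, Ednrb was called: it was at 84.0 and 218 CPM in muscle with no pericyte read (at least 2401-fold, edgeR adjusted p = 0.013), in 8 of 58 cells, while Ednra was at 1538 and 1079 CPM in pericytes and 563 and 569 in muscle and did not pass (log2 difference 1.19, 95% interval 0.09 to 2.29, edgeR adjusted p = 0.71). Ednrb was the 1 gene that edgeR called among 27 vasoactive receptors and mediators tested, whose median was 1.17. DESeq2 called 9 of them, 6 higher in pericytes. The angiotensin receptor Agtr1a (414 and 374 against 76.0 and 22.4 CPM) and the sphingosine receptor S1pr3 (650.0 and 724 against 43.7 and 8.82) were read more in pericytes of both mice, with edgeR adjusted p of 0.28 and 0.099.

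Growth factor genes were called in both directions. Igfbp5, a binding protein of insulin-like growth factors, was at 813 and 557 CPM in muscle with no read in pericytes, at least 11220.3-fold higher (edgeR adjusted p = 0.00049), and Igfbp7 was at 1306 and 1388 against 154 and 21.9 (-4.53, edgeR adjusted p = 0.024). With Ntf3, Ntrk3 and Hgf, 5 of 38 genes of this list were called, 4 of them higher in muscle (12 by DESeq2, 3 of them higher in pericytes), and the median was -1.33. Pdgfrb, the receptor through which endothelium recruits mural cells, was at 1295 and 1243 CPM in pericytes and 278 and 378 in muscle and did not pass (1.97, 95% interval 0.97 to 2.96, edgeR adjusted p = 0.11). Angpt1, which stabilises endothelium through TIE2, was at 90.7 and 179 against 20.8 and 0.517 CPM (edgeR adjusted p = 0.35). In the list of TGF-beta and BMP genes, Ltbp1, which anchors latent TGF-beta in the matrix (577 and 890.2 against 0 and 0.456 CPM, edgeR adjusted p = 0.0021), and Id2 (980.2 and 616 against 57.5 and 12.3, 0.044 in the same test) were the 2 that edgeR called of 32. DESeq2 called 14, 5 of them higher in pericytes.

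Matrix genes beyond elastin also divided the types. In the list of interstitial collagens and matricellular proteins, 7 of 29 genes tested were called, 6 higher in muscle (Thbs2, Nov, Col8a1, Ogn, Thbs1 and Col1a1) and Postn higher in pericytes (17 by DESeq2, 2 of them higher in pericytes), with a median of -2.59. Thbs2, a thrombospondin, was at 905 and 311 CPM in muscle with no read in pericytes (at least 10092-fold, edgeR adjusted p = 0.0030). Col1a1, the main fibrillar collagen chain, was at 1294 and 1674 against 281 and 214 CPM (-2.59 ± 0.45, edgeR adjusted p = 0.024). Mgp, an inhibitor of vessel calcification, was at 1969 and 1487 against 0.297 and 0 CPM (-13.99 ± 1.13, edgeR adjusted p = 0.00030), and Apoe, an apolipoprotein, at 2027 and 1112 against 0.0495 and 2.17 (-11.33, edgeR adjusted p = 0.0035, fitted difference -15.11 to -8.92 over the alternatives). Of 27 basement membrane genes tested, none was called by edgeR and 6 by DESeq2, 8 were past an unadjusted p of 0.05, and the median was -0.34. The type IV collagen chains were higher in pericytes of both mice, Col4a1 at 2360.0 and 1423 against 649 and 529 CPM (edgeR adjusted p = 0.16) and Col4a2 at 1108 and 967 against 289 and 195 (0.071 in the same test).

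Of the 12 genes with the largest fitted difference toward muscle, all 12 had no read in pericytes, which a ranking by fitted difference favours. Besides Cnn1, Igfbp5, Loxl1 and Thbs2 they were Gadd45g, Map3k7cl, Clca3a2, Trac, Wisp2, Sod3, Grp and Prss23. Gadd45g, a stress-inducible growth arrest gene, was at 1846 and 2124 CPM in muscle, at least 32118-fold above pericytes (edgeR adjusted p = 0.00030). Map3k7cl was at 295 and 1291 CPM (at least 12499.7-fold, edgeR adjusted p = 0.0019), and Clca3a2, of the family of chloride channel regulators, at 513 and 1058 (at least 12549.6-fold, edgeR adjusted p = 0.0012). Sod3, the extracellular superoxide dismutase, was at 509 and 409.7 CPM, and Grp, gastrin-releasing peptide, at 267 and 479.8 (edgeR adjusted p = 0.022 and 0.011). Wisp2 and Prss23, a secreted serine protease, were at 484 and 442 CPM (Wisp2) and 555 and 205 CPM (Prss23) (edgeR adjusted p = 0.0021 and 0.011).

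Trac carries the name of the constant segment of the T cell receptor alpha chain. It was at 387 and 621 CPM in muscle, with no read in pericytes (at least 8100.1-fold, edgeR adjusted p = 0.0061), and 14 of 58 muscle cells, 7 in each mouse, held it at 10 CPM. The T cell gene Cd3e had no read in any of the 4 libraries, and the leukocyte gene Ptprc had 1 read in pericytes and 1 in muscle. Strand-specific counting is not given in the sources used here, so reads of overlapping genes cannot be told apart from reads of Trac.

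Several genes widely used as mural markers were not called. Notch3 was at 329 and 405 CPM in pericytes and 349.5 and 363 in muscle (log2 difference 0.03, 95% interval -1.02 to 1.09, edgeR adjusted p = 1.0). Its target Heyl was at 656 and 423 against 701 and 498 CPM (-0.17, 95% interval -1.19 to 0.85, edgeR adjusted p = 1.0). Cspg4, the proteoglycan NG2, was at 172 and 182 against 138 and 161 (0.25, 95% interval -1.09 to 1.58), the G protein regulator Rgs5 at 400.4 and 178 against 151 and 277 (0.38, 95% interval -1.28 to 2.05), and the intermediate filament gene Des at 308 and 476 against 572 and 347 (-0.22, 95% interval -1.46 to 1.03). The intervals of Notch3 and Heyl leave room for differences of about 1 log2 unit either way, so equal levels are not shown. Among 15 Notch pathway genes tested, edgeR called none and DESeq2 3, and 2 were past an unadjusted p of 0.05 in edgeR. The median was a fitted value of 0.00, and 6 of the 15 had a positive log2 difference. Of the 18 listed genes, 7 were under 10 CPM in all 4 libraries, so this median does not show equal levels. The ligand Jag1 was at 84.4 and 291 CPM in muscle and 0.742 and 42.1 in pericytes (log2 difference -4.76, edgeR adjusted p = 0.30), and the receptor Notch2 at 162 and 64.3 in pericytes and 23.3 and 12.1 in muscle (2.60, edgeR adjusted p = 0.32).

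As a check of the names, 3 of 16 pericyte markers were called higher in pericytes (Higd1b, Cox4i2 and Kcnj8), 14 had a positive log2 difference and the median was 1.87. DESeq2 called 9 of these, each higher in pericytes. Of 13 muscle markers tested, 4 were called higher in muscle (Acta2, Cnn1, Myocd and Ntrk3; 8 by DESeq2, each higher in muscle), with a median of -2.74. The marker Lamc3 had no read in pericytes and 2 in muscle, and Pln, a regulator of the calcium pump, had no read in the 4 P7 libraries. Because the markers may have helped to name the cells, these counts only describe the labels.

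**Figure D3:**
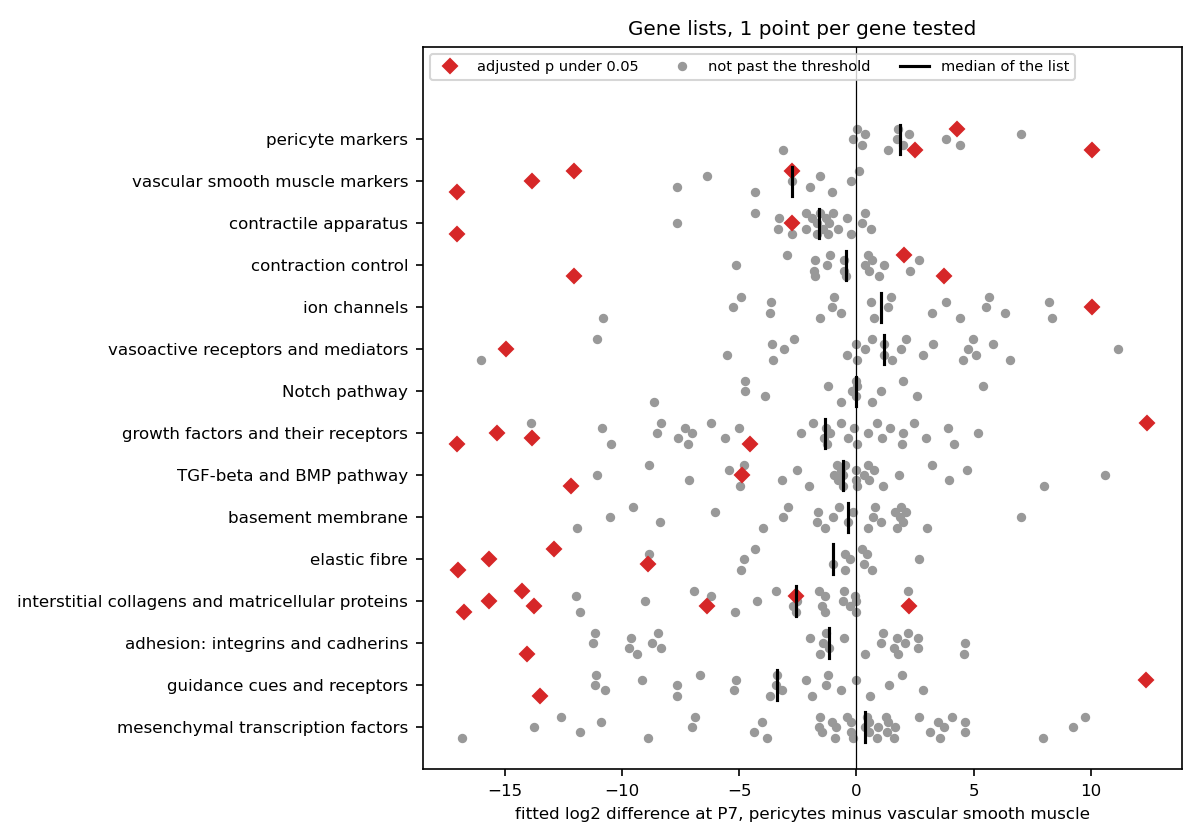
Fitted log2 differences at P7 (pericytes minus vascular smooth muscle) for the genes tested in 15 lists, 1 point per gene, with called genes in red and the median as a black bar. Red points stand on the muscle side for elastic fibre genes and on both sides for growth factors, while the Notch pathway and the basement membrane have none. The fitted value of a gene without reads in 1 type is no fold change.

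Markers of other cells were measured in the same libraries. Of 12 endothelial markers, Cldn5 and Emcn had at most 1 read, Pecam1 was at 0.0990 and 7.02 CPM in pericytes and 0.0362 and 21.5 in muscle, and the summed level was 309 and 289 CPM in pericytes and 186 and 246 in muscle, most of it Esam and Ramp2. The 12 epithelial markers summed to 2.92 and 81.0 CPM in pericytes and 151 and 57.2 in muscle, and the 12 immune markers to 127 and 82.6 against 2.14 and 13.2, in pericytes mostly Coro1a and Lyz2, with Ptprc at 1 read. The erythroid markers summed to at most 9.82 CPM. Fibroblast markers summed to 268 and 129 CPM in pericytes and 1551 and 1525 in muscle. Their member Col14a1 was at 0.445 and 17.5 against 224 and 579 CPM and the proteoglycan Dcn at 0.0495 and 0 against 78.9 and 84.5, while Pdgfra was under 1 CPM in the 4 libraries. Mfap5 and Limch1, both called higher in muscle, belong to this list, and 2 of its 13 tested members were called (6 by DESeq2). Whether fibroblast transcripts in the muscle cells have a part in these results was not tested. Actg2, Lgr6 and Tgfbi, from the list for airway muscle and myofibroblasts, were read more in muscle of both mice, and Foxf1 (346 and 357 against 50.8 and 17.4 CPM) and Enpp2 (302 and 277 against 2.39 and 0) more in pericytes, with 0 of 9 tested members called by edgeR (5 by DESeq2, 4 past an unadjusted p of 0.05 in edgeR).

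In the other lists edgeR called between 0 and 2 genes and DESeq2 up to 13. Of 27 integrins, cadherins and other adhesion genes tested, Cdh13, the cadherin without a membrane-spanning segment, was called, at 329 and 594 CPM in muscle and 0.0495 and 0 in pericytes (edgeR adjusted p = 0.00030), with a list median of -1.19 (12 by DESeq2, 4 of them higher in pericytes). Of 25 guidance genes tested, Gap43 and the secreted cue Slit3 were called, Slit3 at 191 and 330.1 against 0 and 0.0351 CPM (edgeR adjusted p = 0.0012), with a median of -3.41 (10 by DESeq2, 1 of them higher in pericytes). Of the 29 listed guidance genes, 10 were under 10 CPM in all 4 libraries. Their summed level was 738 and 995 CPM in pericytes and 825 and 1118 in muscle, so the median is no fold change of the list. Of 25 oxidative phosphorylation and hypoxia genes, Higd1b and Cox4i2 were called (5 by DESeq2), and the median was 0.01. edgeR called none of 24 Wnt and hedgehog genes (median -0.84, 3 past an unadjusted p of 0.05, 5 by DESeq2) and none of 43 mesenchymal transcription factors (0.35, 12 and 13). It also called none of 21 cell division genes (-0.71, 0 and 0) and none of 24 immediate early and stress genes (-0.35, 4 and 3). The cell division genes were compared without the 10 cells labelled proliferating pericytes, so these values do not compare division between the types.

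The called genes were read side by side in single cells. A gene was counted as held by a cell at 10 CPM or more, from the cell's own reads. Pericytes of the female held 8 to 22 of the 24 pericyte genes and 0 to 6 of the 59 muscle genes, and those of the male 7 to 22 and 0 to 9. Muscle cells of the female held 2 to 13 of the 24 and 14 to 47 of the 59, and those of the male 0 to 11 and 8 to 50. In 57 of 57 pericytes the pericyte genes outnumbered the muscle genes, although the muscle list is the longer. In 57 of 58 muscle cells the muscle genes outnumbered the pericyte genes, and 1 cell of the male held more pericyte than muscle genes. The 10 proliferating pericytes held 12 to 21 pericyte genes and 1 to 14 muscle genes. These counts use the cells from which the genes were called, so they describe the spread and are no test.

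**Figure D4:**
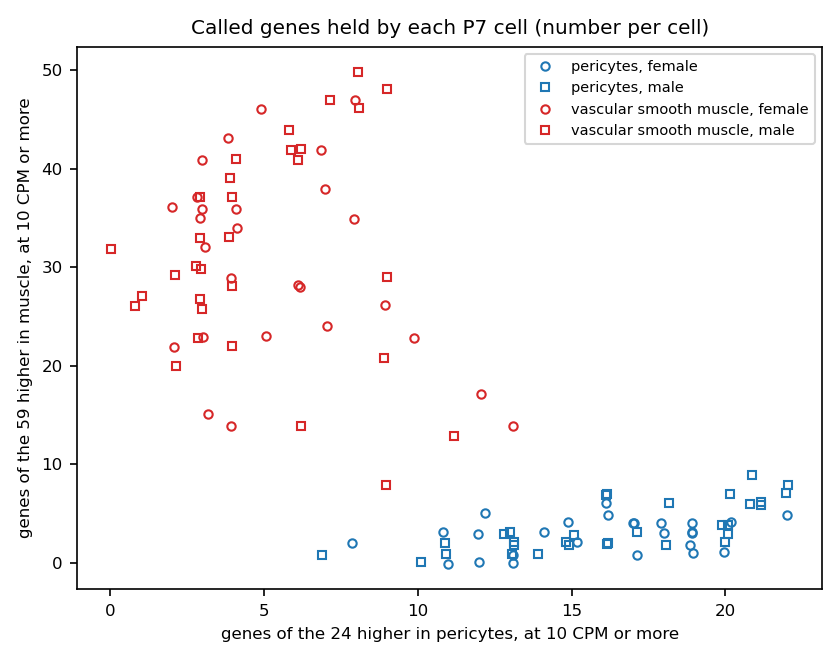
Each P7 cell by the number of called pericyte genes (of 24, x axis) and called muscle genes (of 59, y axis) that it held at 10 CPM or more, with a small random offset (blue pericytes, red vascular smooth muscle, circles female, squares male). Pericytes lie below 10 muscle genes and muscle cells spread from 8 to 50.

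Few called genes marked every cell of their type. The share of pericytes with a called pericyte gene at 10 CPM ranged from 14.0% (Kcnj8) to 100%, with a median over the 24 genes of 72.8%, and 15 of the 24 were in at least 50% of pericytes. For the 59 muscle genes the share of muscle cells ranged from 10.3% (Col8a1) to 100%, with a median of 50.0%, and 33 were in at least 50%. In the opposite type the median share was 7.76% for pericyte genes and 0% for muscle genes.

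The called genes were also set beside the other mesenchymal subtypes of these mice. Among 7 subtypes with at least 10 cells in both mice, both pericyte libraries lay above the libraries of every other subtype for 20 of the 24 genes, against 5.03% of all genes tested. The same held for muscle for 29 of its 59 genes, against 3.11%. The genes were chosen for the difference between these types, so 1 of the comparisons was fixed by the choice (both muscle libraries were above both pericyte libraries for 21.1% of all genes tested). By mean level, 35 of the 59 muscle genes were highest in vascular muscle. Another 11 had their highest mean in early adventitial fibroblasts (among them Mfap5, Mgp, Ogn, Loxl1 and Col1a1), 9 in early airway smooth muscle (among them Cnn1, Myocd, Ednrb and Map1b) and 4 in early alveolar fibroblasts. Eln was highest in vascular muscle, at 13537 and 12289.5 CPM on the scale of these libraries, against 5084 and 3388 in early adventitial fibroblasts and 3154 and 2599 in early airway muscle. Cnn1 was at 1556 and 1967 CPM in early airway muscle against 903 and 554 in vascular muscle. The pericyte genes outside the 20 were Car2, Kcnj8, Tmem100 and Hgf. Car2 was at 3882 and 4707 CPM in myofibroblasts and 3926 and 5305 in proliferating myofibroblasts. In pericytes it was at 5594 and 4199.7, below both in the male. Kcnj8 was higher in early airway muscle (605 and 606) than in pericytes (53.0 and 45.4). In early alveolar fibroblasts Tmem100 was at 191 and 185 CPM, against 103 and 244 in pericytes. Hgf was at 17.4 and 24.0 in those fibroblasts, against 8.90 and 56.5 in pericytes. These levels were not tested across subtypes.

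Upstream sequence is shown for 3 contractile or muscle genes and for Gucy1a1, as examples of 2 motifs tied to mural cell genes. The window was the 250 bases before the start site, from RefSeq with build GRCm38.p6, where 17 of the 24 pericyte genes and 39 of the 59 muscle genes had an entry. The CArG box, to which serum response factor binds, was searched on both strands in its strict form (CC, only A or T between, then GG). It was in 2 of the 39 muscle genes (Actc1 and Fhl1) and in 0 of the 17 pericyte genes, against 1.62% of all genes with an entry. In the list of contractile genes it was in 4 of the 21 with an entry (19.0%). TGGGAA, the core of the site of the Notch effector RBPJ, was searched on both strands and was found for 8 of the 17 and 11 of the 39 genes, against 24.1% of all genes with an entry. A gene with several promoters has more windows in which to match. Counted by promoter, the shares were 33.3% of 30 for pericyte genes and 21.0% of 62 for muscle genes, against 21.6% of all promoters. None of these shares was tested. Capitals mark the CArG box in Actc1 and Fhl1 and TGGGAA or its reverse complement TTCCCA in Acta2 and Gucy1a1. The windows are chr2:114052876-114053125 (minus strand) for Actc1, chrX:56779433-56779682 (plus) for the Fhl1 promoter shown, chr19:34255374-34255623 (minus) for Acta2 and chr3:82145074-82145323 (minus) for Gucy1a1. The Acta2 window had no strict CArG match, but its stretches ccctatatgg and ccttgttTGG each differ from the strict form by 1 base. The latter overlaps the marked TGGGAA. Inexact matches were not searched, so the counts do not show that a gene lacks a CArG-like element. A match of letters is no evidence of binding.
Actc1: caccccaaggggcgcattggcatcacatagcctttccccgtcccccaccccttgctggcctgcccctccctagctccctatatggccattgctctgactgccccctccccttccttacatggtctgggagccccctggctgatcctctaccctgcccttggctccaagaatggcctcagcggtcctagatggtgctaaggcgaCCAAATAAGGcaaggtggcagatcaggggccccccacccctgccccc
Fhl1: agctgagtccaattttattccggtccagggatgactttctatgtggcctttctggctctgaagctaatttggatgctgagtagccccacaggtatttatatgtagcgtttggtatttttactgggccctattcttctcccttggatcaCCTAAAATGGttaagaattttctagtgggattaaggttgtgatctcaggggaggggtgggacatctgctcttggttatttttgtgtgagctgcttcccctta
Acta2: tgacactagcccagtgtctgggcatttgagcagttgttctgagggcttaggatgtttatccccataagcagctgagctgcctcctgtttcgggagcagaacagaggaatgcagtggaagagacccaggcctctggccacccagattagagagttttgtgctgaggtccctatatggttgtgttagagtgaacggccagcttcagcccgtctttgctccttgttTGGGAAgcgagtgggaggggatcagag
Gucy1a1: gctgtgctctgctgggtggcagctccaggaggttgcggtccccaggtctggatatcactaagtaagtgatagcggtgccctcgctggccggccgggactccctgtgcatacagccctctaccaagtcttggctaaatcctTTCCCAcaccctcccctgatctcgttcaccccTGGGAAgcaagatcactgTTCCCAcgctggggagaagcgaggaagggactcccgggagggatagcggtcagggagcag

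The same difference was measured in other mice at P1 and P21, which share the fit's estimate of spread with P7. At P1, 62 genes were called (0.477% of those tested), 21 higher in pericytes (0.162%) and 41 in muscle (0.316%). At P21, 115 were called (0.885%), 35 higher in pericytes (0.269%) and 80 in muscle (0.616%). Of the 24 pericyte genes of P7, 11 were also called at P1 and 14 at P21 (52.4% of the P1 calls and 40.0% of the P21 calls in that direction). Of the 59 muscle genes, 31 were called at P1 and 43 at P21 (75.6% and 53.8% of the calls at those ages). All 24 pericyte genes had the same sign at P1 and 23 at P21, the exception being Kcnj8. All 59 muscle genes had the same sign at P21 and 58 at P1, the exception being Mfap5. The counts at P1 and P21 fell when either mouse of that age was left out. At P1, 3 genes were called without the female P1 mouse and 31 without the male, but 112 and 102 without the female or the male P7 mouse. At P21, 12 or 16 were called without the female or the male P21 mouse. DESeq2 called 658 genes higher in pericytes and 536 in muscle at P21.

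A core of genes was called at each of the 3 ages. In pericytes it held 9 genes: Car2, Cdk18, Emid1, Gap43, Itm2a, Lepr, Pde5a, Pdzd2 and Sstr2. In muscle it held 28, among them Acta2, Actc1, Cnn1, Myocd, Eln, Loxl1, Igfbp5, Thbs2, Ntf3, Ednrb, Cdh13, Timp4, Gadd45g and Trac. Eln at P1 was at 7148 and 5044 CPM in muscle against 46.1 and 117 in pericytes, and at P21 at 4651 and 6069 against 27.7 and 88.5. Clca3a2, at 513 and 1058 CPM in P7 muscle, was at 486 and 1136 at P1 and 0 and 0.0562 at P21, a change of the difference that did not pass (edgeR adjusted p = 0.33). Close relatives of this gene exist, and reads shared with them are uncertain. At P7 alone, 8 pericyte genes were called (Ccrl2, Hgf, Kcnj8, Lims1, Mapt, Sept4, Sparcl1 and Tmem100) and 13 muscle genes, but a call at 1 age and not at another does not show that the difference changed.

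The change of the difference was tested itself. From P1 to P7, 8 genes were called (0.0616%), in each case with the difference moving toward muscle: Mfap5, Gadd45g, Loxl1, Ogn, Mgp, Cdkn1a, Slit3 and Ntrk3. Their pericyte levels were lower at P7 than at P1 in both mice of each age. Mgp, for example, was at 165 and 623 CPM in P1 pericytes and 0.297 and 0 at P7, and Mfap5 at 181 and 242 at P1 with no read at P7. Few cells carried this: 11 of 43 P1 pericytes held any of the 8 genes at 10 CPM and 3 held 3 or more of them, against 1 and 0 of 57 at P7 and 26 and 3 of 145 at P21. In muscle the median cell held 5 of the 8 at P1 and 4 at P7. With the proliferating pericytes joined to the pericytes 3 genes were called, without the male P1 mouse 4 and without the male P7 mouse 13.

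From P7 to P21, 5 genes were called (0.0385%). The difference of Acta2 grew: pericyte Acta2 went from 4665 and 1743 CPM at P7 to 93.0 and 131 at P21 while muscle stood at 20245 and 17738 at P7 and at 14795 and 21783 at P21 (edgeR adjusted p of the change = 0.016). Actg2 went from 449 and 115 to 0 and 0.0358 CPM in pericytes, against 2463 and 2095 at P7 and then 1479.9 and 2544 at P21 in muscle (edgeR adjusted p = 0.0087). Acta2 at 10 CPM was held by 45 of 57 pericytes at P7 and 19 of 145 at P21. Kcnj8 had the opposite sign at P21, with 27.9 and 90.6 CPM in pericytes and 169 and 329 in muscle (edgeR adjusted p of the change = 0.025). Its difference at P21 was itself not called, so a reversal is not shown. At that age 4 of 52 muscle cells held Kcnj8 at 10 CPM, and 18 of 145 pericytes. Gadd45g and Loxl1 had the other direction, with pericyte levels of 4.98 and 20.1 CPM for Gadd45g and 2.57 and 2.67 for Loxl1 at P21 against 0 at P7. Without the female or the male P21 mouse edgeR called no gene (652 and 204 past an unadjusted p of 0.05), and without the male P7 mouse 10. DESeq2 called 396 on all 12 libraries.

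**Figure D5:**
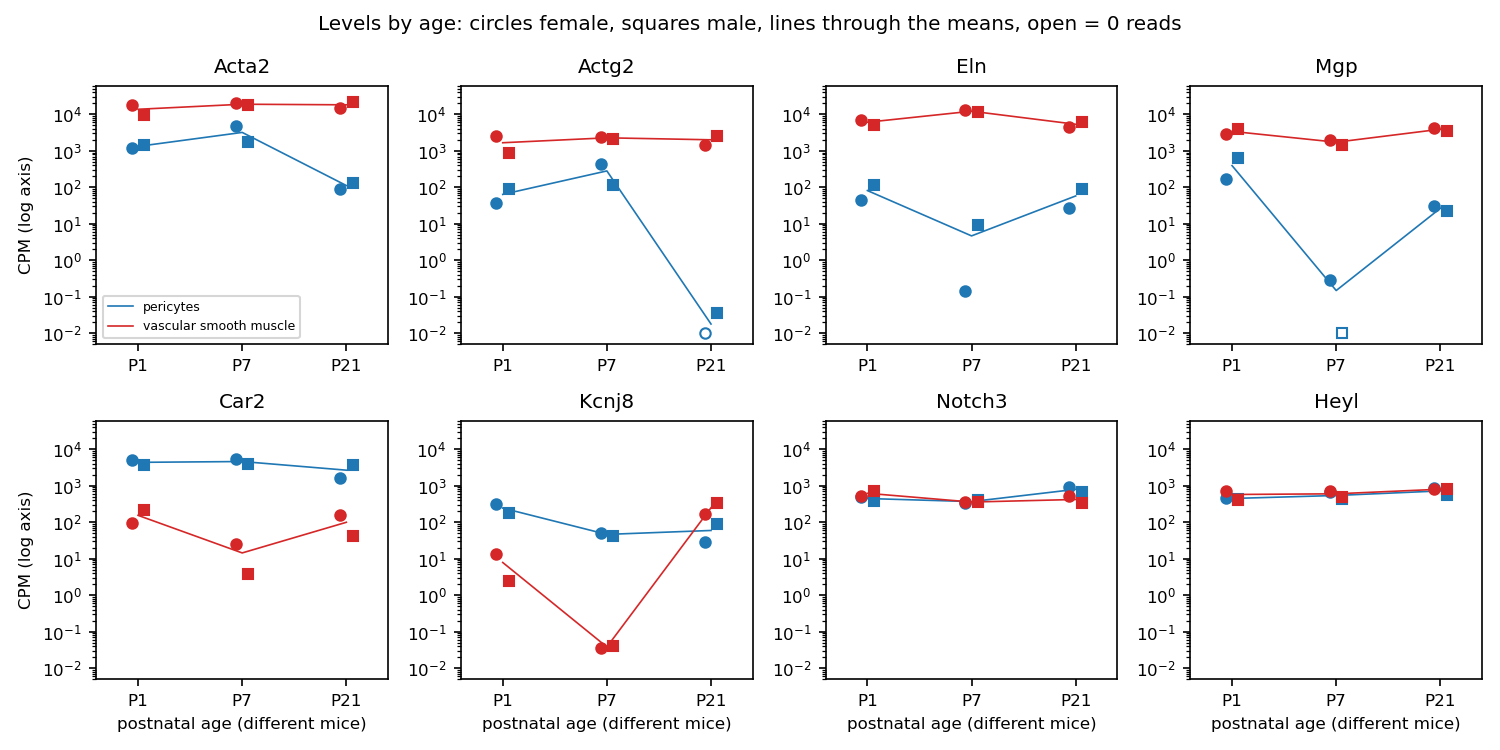
Levels of 8 genes in pericytes (blue) and vascular smooth muscle (red) at P1, P7 and P21, in CPM on a log axis, with circles for the female, squares for the male and lines through the means of 2 different mice per age. Acta2 and Actg2 in pericytes are lower at P21 than at P7, Mgp is at its lowest in pericytes at P7, and Notch3 and Heyl lie together at each age.

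Cell numbers and genes per cell were also compared. At P7 there were 0.963 pericytes per vascular smooth muscle cell in the female and 1 in the male. In the other 6 mice in normal air the ratio ranged from 1.25 to 3.95, and over all 8 mice the mean log2 ratio was 0.70 (exact paired sign-flip permutation test, two-sided, p = 0.031, with pericytes the more numerous in 6 of 8). The p of this test was 0.0625 when any of the 6 mice outside P7 was left out. All 6 had more pericytes than muscle cells, so this p follows from the number of mice left. These are numbers of sorted and labelled cells, and their relation to numbers in the tissue was not tested. After thinning to 100000 reads, the median P7 pericyte showed 1885 (female) and 2224 (male) genes, and the median muscle cell 1838 and 1574.5. Over 6 mice the pericyte-minus-muscle difference averaged -185 genes (exact paired sign-flip permutation test, p = 0.59), positive in 3 of 6, and the smallest p that 6 mice allow is 0.031.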

How the data were processed

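The authors deposited a count table of whole reads per gene and cell, without molecular identifiers, with subtype names in the sample labels. The submitters' processing notes name STAR 2.5.2b, HTSeq 0.10 and build GRCh38, a human build, although the samples are mouse; no coordinates were taken from the files. Counts of 1497 cells were summed per mouse and subtype, and 3983 cell columns were not used. Both subtypes come from the same mouse, so the mouse was a block in edgeR 4.0.16 (R 4.3.3; quasi-likelihood, TMM, filterByExpr, 3 residual degrees of freedom, Benjamini-Hochberg over all genes). Mice needed at least 10 cells of both subtypes. The replicates are 1 female and 1 male mouse per age, so sex and mouse cannot be told apart. Genes named are the 12 most different each way among those called with a mean of 10 CPM, list members, and up to 4 per direction for changes with age; other names were chosen after their values were seen. The members and all gene lists were chosen with earlier results of these data known. The list directions are therefore no independent evidence. Alternatives were DESeq2 1.42.0, other scaling, no filter, thinning, other cell sets, no block and leaving out each mouse. No doublet caller was run. Ratio intervals and floors (3 reads) cover counting error at 95%, ratios by the exact method. Standard errors of log2 differences are the fitted difference divided by the square root of the F statistic of the edgeR test. The 95% intervals of log2 differences are built from these errors, so both are approximate.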

Additional observations from a re-analysis of the deposited data

Results flagged for a closer look

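The difference between pericytes and vascular smooth muscle itself differed between ages for some genes, by a test of that change in edgeR. From P1 to P7, Mfap5, Gadd45g, Loxl1 and Ogn each had an adjusted p of 0.00521. Their pericyte levels at P1 and P7 were 181 and 242 and then 0 and 0 CPM for Mfap5, 129 and 10.7 and then 0 and 0 for Gadd45g, 33.4 and 26.4 and then 0 and 0 for Loxl1, and 39.1 and 66.0 and then 0 and 0.0351 for Ogn, in the female and the male of each age. The muscle level of Mfap5 was 13.0 and 86.3 CPM at P1, below the pericytes of that age, and 367 and 191 at P7.

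From P7 to P21 the change had an adjusted p of 0.00866 for Actg2 and 0.0156 for Acta2, with the difference moving toward muscle, and 0.0252 for Kcnj8, moving the same way. For Gadd45g (0.0156) and Loxl1 (0.0492) it moved toward pericytes. Gadd45g in pericytes was at 4.98 and 20.1 CPM at P21 and Loxl1 at 2.57 and 2.67, against 0 reads at P7, so the fitted changes of these genes are no fold change.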

How the results depend on the processing

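Of the 83 genes called at P7, 23 stayed on the same side of the threshold under every alternative run (4 higher in pericytes: Car2, Itm2a, Lepr and Pdzd2; 19 in muscle), and 0 reversed. Counts at P7, P1 and P21, then for the changes P1 to P7 and P7 to P21, were 1236, 1218, 1194, 356 and 396 with DESeq2, 223, 170, 269, 23 and 27 with no filter on low counts, and 336, 300, 355, 28 and 31 with thinned cells. The 4 P7 libraries alone gave 45. With no scaling factor P1 gave 39. Taking mice with at least 5 cells gave 40 at P1 and 5 for P1 to P7. Joining the proliferating pericytes gave 3 for each change. Leaving out 1 mouse gave 51 to 108, 3 to 112, 12 to 170, 4 to 13 and 0 to 10. Without the replicate block, that is unpaired, the counts were 94, 73, 117, 7 and 4, and 75 of the 83 were among the 94. The difference in genes per cell ranged from -352 to 28.6 without 1 mouse, reversed to 28.6 without the male P1 mouse. The mean log2 ratio of pericytes per vascular smooth muscle cell ranged from 0.52 to 0.81, among them 0.66 and 0.71 when either E18.5 mouse, female then male, was dropped. The cause of these shifts was not tested. With 3 residual degrees of freedom and few cells per library, genes held by few cells rest on single cells, and depth differed between the types.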
